A study of Mus musculus with 4 samples.

Results

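The 9 genes described here code for the parts of the hemidesmosome of basal keratinocytes, for laminin 332 and for one of their regulators: Itga6, Itgb4, Itga3, Cd151, Dst, Plec, Lama3, Lamb3 and Trp63. They were chosen by gene symbol, and all 9 were found among the 20611 genes of each count table. The RNA came from the back skin of BALB/c males, 8 to 9 weeks old. A cream with 5% imiquimod (IMQ) was applied daily (47 mg) from day 1 to day 5, and skin was collected on day 6. Imiquimod is a Toll-like receptor 7 ligand that gives a psoriasis-like dermatitis. In the IMQ+IDMF group (1 library) the cream was followed about 1 h later by a lotion with isosorbide di-(methyl fumarate) (IDMF), a pro-drug of dimethyl fumarate. In the IMQ+VEH group (2 libraries) it was followed by the vehicle lotion, and in the IMQ group (1 library) by no lotion. All 4 libraries come from imiquimod-treated skin, and untreated skin is not among them. The labels do not say how many mice gave each library.

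The hemidesmosome ties the keratin filaments of the basal keratinocyte to the basement membrane. The integrin made of the alpha 6 and beta 4 chains spans the membrane; plectin (Plec) and the BP230 form of dystonin (Dst) link its inner face to keratins, and the tetraspanin Cd151 holds laminin-binding integrins in the membrane. Outside the cell the integrin binds laminin 332, which holds the chains from Lama3 and Lamb3 and which the alpha 3 chain (Itga3), paired with the beta 1 chain, binds too. Trp63 codes for p63, the transcription factor that maintains basal keratinocytes. Loss of the alpha 6 or beta 4 chain, of laminin 332 or of plectin makes skin blister in humans and mice.

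By GENCODE M21 (GRCm38), Dst lies on chromosome 1 (33908225 to 34308661, plus strand), Lamb3 on chromosome 1 (193207699 to 193343878, plus), Itga6 on chromosome 2 (71745616 to 71858416, plus) and Cd151 on chromosome 7 (141467392 to 141471473, plus). Itga3 (95044474 to 95076801, minus) and Itgb4 (115974709 to 116008412, plus) are both on chromosome 11. Plec is on chromosome 15 (76170974 to 76232574, minus), Trp63 on chromosome 16 (25683763 to 25892102, plus) and Lama3 on chromosome 18 (12333819 to 12583013, plus). Exons of other genes overlap 7.66% of the exon bases of Itgb4 (B230344G16Rik), 7.04% of Cd151 (Gm10575), 3.63% of Dst, 1.83% of Lama3 and 1.13% of Plec; for Itga6, Itga3, Lamb3 and Trp63 it is 0. No source used here gives the strand setting of the counting, so reads in those overlaps cannot be assigned with certainty.

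Total counts ranged from 21167149 to 26639628 per library. Basal keratinocyte RNA was abundant: Krt5 had 109085 counts in IMQ+IDMF, 104560 and 83166 in the IMQ+VEH libraries and 115634 in IMQ. Every one of the 9 genes was well covered. The lowest of their 36 counts was 619, for Lama3 in IMQ+VEH replicate 2, with an exact Poisson 95% interval of 571 to 670; such intervals cover counting error only. Stromal RNA differed between the libraries. The summed CPM (counts scaled to TMM library size) of 10 fibroblast markers was 2334 in IMQ+IDMF, 6688 and 3510 in IMQ+VEH replicates 1 and 2, and 1847 in IMQ. In bulk tissue, fewer cells of a type and less RNA per cell cannot be told apart.

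RefSeq promoter windows on GRCm38.p6 (250 bases before to 50 after an annotated start) were read for 4 of the 9 genes: Itga3, Lamb3, Dst and Cd151, with 2 windows each. The windows below are shown because Itga3 and Lamb3 had the largest differences between IMQ+IDMF and the mean of the IMQ+VEH pair, and because Dst is a gene with several starts. The annotated start of the Dst window lies 70 bases from that of GENCODE transcripts whose proteins have 2639 to 5175 residues, the shortest in the size class of the epidermal form; upstream starts serve plakins of muscle and nerve. Counts per gene add these forms together. Capitals mark GGGCGG, the GC box, and TGANTCA, a pattern that includes AP-1 sites, searched on both strands; these 2 motifs share no bases here.
Itga3, chr11:95076665-95076964, minus strand: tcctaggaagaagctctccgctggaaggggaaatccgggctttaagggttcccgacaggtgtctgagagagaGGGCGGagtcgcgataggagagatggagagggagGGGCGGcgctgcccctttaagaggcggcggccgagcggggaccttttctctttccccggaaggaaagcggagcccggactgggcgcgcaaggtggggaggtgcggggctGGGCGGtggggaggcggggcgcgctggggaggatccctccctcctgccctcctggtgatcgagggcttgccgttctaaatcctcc
Itga3, inner start, chr11:95069149-95069448, minus strand: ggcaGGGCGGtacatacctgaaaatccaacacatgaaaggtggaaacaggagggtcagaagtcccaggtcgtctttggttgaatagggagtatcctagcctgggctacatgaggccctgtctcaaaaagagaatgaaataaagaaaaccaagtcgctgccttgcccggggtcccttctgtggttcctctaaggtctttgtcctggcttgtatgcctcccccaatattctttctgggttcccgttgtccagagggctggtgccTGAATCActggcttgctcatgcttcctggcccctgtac
Lamb3, chr1:193301744-193302043, plus strand: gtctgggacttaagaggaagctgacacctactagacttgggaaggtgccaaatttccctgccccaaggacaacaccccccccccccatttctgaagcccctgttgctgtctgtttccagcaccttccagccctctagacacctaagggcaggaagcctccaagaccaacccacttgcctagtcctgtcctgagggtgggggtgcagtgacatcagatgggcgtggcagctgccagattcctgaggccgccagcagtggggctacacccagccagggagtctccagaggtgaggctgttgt
Dst, inner start, chr1:34160010-34160309, plus strand: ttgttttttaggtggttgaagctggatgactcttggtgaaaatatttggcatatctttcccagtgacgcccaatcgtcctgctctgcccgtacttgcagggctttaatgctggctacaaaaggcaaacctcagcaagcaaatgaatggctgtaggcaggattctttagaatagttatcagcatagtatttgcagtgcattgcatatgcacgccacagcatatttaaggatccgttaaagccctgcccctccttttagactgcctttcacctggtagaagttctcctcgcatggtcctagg
GGGCGG was in 4 of the 8 windows of these genes, against 35.7% of all 32851 windows, and TGANTCA in 1 of 8, against 7.81%. A pair of CATG cores 6 bases apart, as in full p53-family sites, was in 0 of 8, against 0.712%. The printed Lamb3 and inner Dst windows hold none of the 3 patterns. These matches describe letters only.

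Levels per length, as the authors' FPKM (fragments scaled to transcript length and library size), differed between the genes. Trp63 and Cd151 were highest, with medians over the 4 libraries of 52.4 and 50.3 FPKM. Dst (20.3 FPKM), Itga6 (19.8), Plec (14.0), Lamb3 (13.9) and Itgb4 (13.4) followed, then Itga3 (7.87) and last Lama3 (3.01). Ranges over the libraries overlapped between Trp63 and Cd151, between Itgb4 and Itga3, and between most of the 5 genes from Dst to Itgb4: that of Dst (15.2 to 21.7) overlapped those of Plec, Lamb3 and Itgb4, and that of Itga6 (18.4 to 24.6) just met that of Lamb3 (13.1 to 18.5) but lay above those of Plec and Itgb4. They did not overlap between Cd151 and Dst or between Itga3 and Lama3. FPKM of Dst, Lama3 and Trp63 depends on the mix of isoforms that the authors' length estimate assumed.

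**Figure D1:**
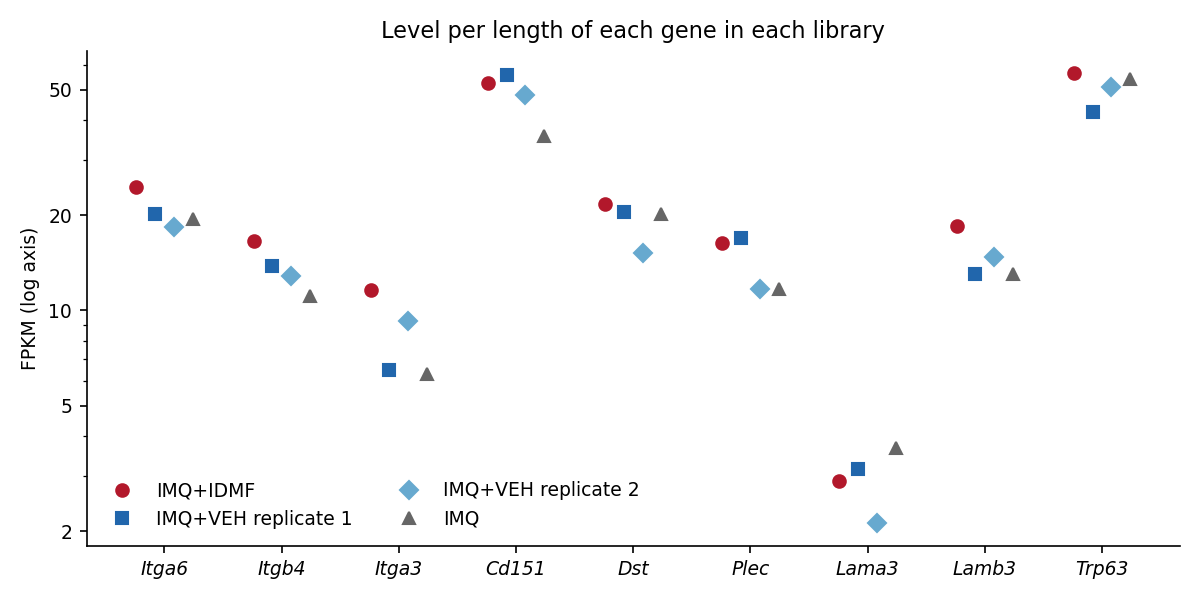
FPKM of each of the 9 genes (log axis) in the IMQ+IDMF library, the 2 IMQ+VEH libraries and the IMQ library, 1 point per library. Trp63 and Cd151 lie between 35.5 and 56.3 FPKM, and Lama3 lies between 2.12 and 3.67 FPKM, below all others.

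IMQ+IDMF set against IMQ+VEH addresses the effect of the compound beyond that of its lotion. The hemidesmosome genes were slightly higher in IMQ+IDMF. With TMM scaling their median log2 CPM was 0.32 above the mean of the IMQ+VEH pair, against 0.01 over all genes tested. It was 0.35 above replicate 1 and 0.34 above replicate 2. With scaling to epidermal genes these were 0.11 and 0.46, where all genes had -0.24 and 0.12. With total counts they were 0.30 and 0.41, where all genes had -0.05 and 0.07. Against the mean of the pair Itga3 and Lamb3 had the largest difference and Cd151 and Lama3 the smallest. That order rests on replicate 1: against replicate 2 alone Dst (0.51), Plec (0.46) and Lama3 (0.41) lay above Itga3 and Lamb3 (both 0.31). None of the 9 passed the test. EdgeR's quasi-likelihood test with Benjamini-Hochberg adjustment called 0 of the 9 and 0% of 15068 genes, with 0 of the 9 and 2.03% of genes at an unadjusted p under 0.05; DESeq2 called 0 of the 9. IMQ+IDMF lay above both IMQ+VEH libraries for 8 of the 9 genes, against 27.7% of genes tested, and below both for 0 of 9, against 27.5%. Of the 8, Cd151, Dst and Plec lay within 0.04 of replicate 1 on the log2 CPM scale. The count above both was 5 of 9 with total counts (29.1% of genes), 5 of 9 with scaling to epidermal genes (16.7%) and 6 of 9 by FPKM (23.4%). IMQ+IDMF is a single library, and the test assumes for it the spread of the fit, which comes from the IMQ+VEH pair (1 residual degree of freedom) and mostly from the trend over all genes (11.2 prior degrees of freedom).

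**Figure D2:**
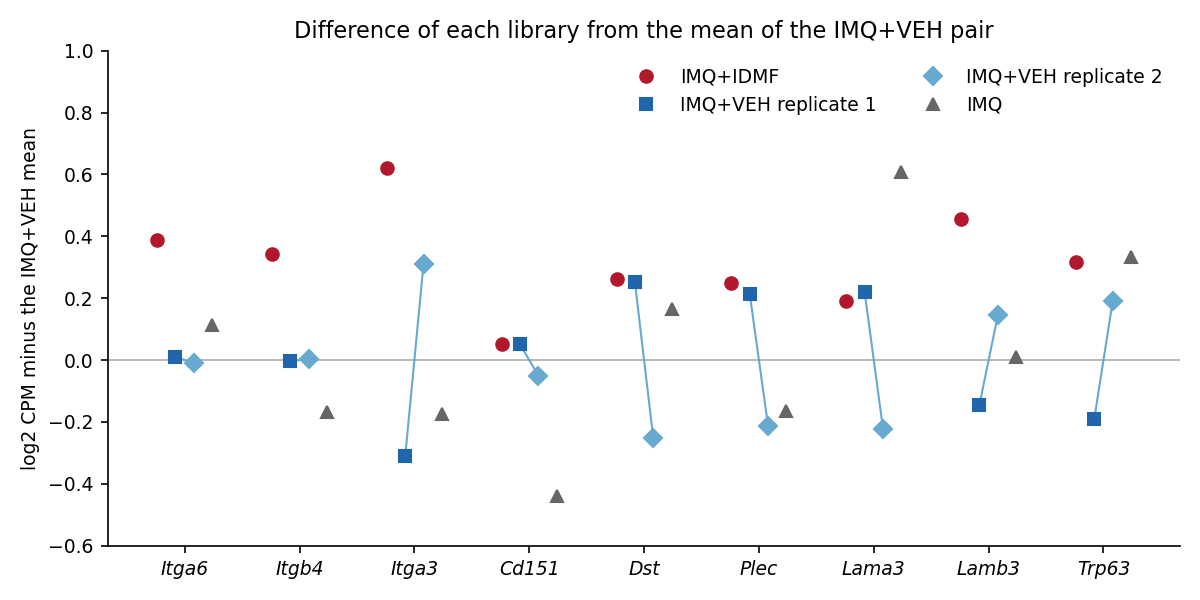
Log2 CPM of each library minus the mean of the IMQ+VEH pair, for each gene; the blue line joins the 2 IMQ+VEH libraries. With the TMM scaling used here the pair nearly coincides for Itga6 and Itgb4 and IMQ+IDMF lies 0.39 and 0.34 above its mean, while for Dst, Plec and Lama3 IMQ+IDMF lies close to replicate 1.

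Among the receptors, Itga6 had 196 CPM in IMQ+IDMF, 151 and 149 CPM in IMQ+VEH replicates 1 and 2, and 162 CPM in IMQ. Its partner Itgb4 had 133 CPM in IMQ+IDMF, 104 and 105 CPM in IMQ+VEH and 93.0 CPM in IMQ. Both chains were highest in IMQ+IDMF. Within the IMQ+VEH pair the log2 difference was -0.02 for Itga6 and 0.01 for Itgb4 with TMM scaling, but -0.14 and -0.11 with total counts and -0.38 and -0.35 with scaling to epidermal genes, where IMQ+IDMF was 0.14 and 0.11 above replicate 1. The log2 fold change of IMQ+IDMF against IMQ+VEH was 0.39 for Itga6 (SE 0.28, 95% interval -0.22 to 1.00) and 0.34 for Itgb4 (SE 0.26, -0.23 to 0.92), each with an adjusted p of 1 by edgeR.

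Itga3 differed most from the mean of the pair, through replicate 1 (0.93) more than replicate 2 (0.31). It had 72.1 CPM in IMQ+IDMF, 37.8 and 58.2 CPM in IMQ+VEH replicates 1 and 2 and 41.5 CPM in IMQ, so IMQ+IDMF was highest but replicate 2 stood nearer to it than to replicate 1. The log2 fold change was 0.59 (SE 0.30, 95% interval -0.06 to 1.24, edgeR adjusted p of 1), and the IMQ+VEH pair itself differed by 0.62. Cd151, which binds the alpha 3 and alpha 6 integrins, had 114.4 CPM in IMQ+IDMF, 114.3 and 107 CPM in IMQ+VEH and 81.4 CPM in IMQ. IMQ stood lowest, and the 3 lotion-treated libraries lay close together with TMM scaling (the IMQ+VEH pair differed by -0.10, and by -0.46 with scaling to epidermal genes). Its log2 fold change for IMQ+IDMF against IMQ+VEH was 0.05 (95% interval -0.53 to 0.63).

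The plaque genes Dst and Plec had one pattern in the lotion-treated skin. Dst had 319.7 CPM in IMQ+IDMF, 318 and 224 CPM in IMQ+VEH replicates 1 and 2, and 299 CPM in IMQ. Plec had 330.1 CPM in IMQ+IDMF, 322 and 239.7 CPM in IMQ+VEH replicates 1 and 2, and 248 CPM in IMQ. With TMM scaling IMQ+IDMF lay close to replicate 1 and above replicate 2 for both. The IMQ+VEH pair differed by -0.50 (Dst) and -0.43 (Plec) in log2 CPM. That was more than the log2 fold change of IMQ+IDMF against IMQ+VEH (0.24, SE 0.35, and 0.23, SE 0.34). With scaling to epidermal genes IMQ+IDMF minus replicate 1 was -0.23 (Dst) and -0.21 (Plec), where all genes had a median of -0.24. The pair then differed by -0.86 and -0.79, where all genes had -0.39. Plectin and dystonin are also made in muscle and nerve. Skeletal muscle markers summed to 23783 CPM in IMQ+IDMF, 25235 and 17898 CPM in IMQ+VEH and 13451 CPM in IMQ, and Schwann and nerve markers to 244 CPM in IMQ+IDMF, 459.5 and 261 CPM in IMQ+VEH and 117 CPM in IMQ, with all 10 markers of each list detected in each library. Both lists were lower in replicate 2 than in replicate 1, as Dst and Plec were; their part in the result was not tested.

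Lama3 and Lamb3 differed in pattern between the libraries, and neither passed the test. Lamb3 had 98.2 CPM in IMQ+IDMF, 64.8 and 79.2 CPM in IMQ+VEH and 72.1 CPM in IMQ, which put IMQ+IDMF above all 3 others (log2 fold change against IMQ+VEH 0.45, SE 0.26, 95% interval -0.13 to 1.02, edgeR adjusted p of 1). Lama3 had 40.2 CPM in IMQ+IDMF, 41.1 and 30.2 CPM in IMQ+VEH replicates 1 and 2, and 53.7 CPM in IMQ; IMQ+IDMF lay between the IMQ+VEH libraries and IMQ was highest (0.17, SE 0.29, 95% interval -0.46 to 0.81). By FPKM, Lama3 stood at 0.156 of Lamb3 in IMQ+IDMF, at 0.241 and 0.144 in IMQ+VEH and at 0.281 in IMQ. By raw count it stood at 0.409 in IMQ+IDMF, at 0.633 and 0.381 in IMQ+VEH and at 0.744 in IMQ. The size of the FPKM ratio thus depends on the lengths that were assumed. For this ratio IMQ+IDMF lay between the IMQ+VEH libraries, and IMQ was highest. Itga3 stood at 0.472 of Itga6 in IMQ+IDMF, at 0.320 and 0.504 in IMQ+VEH and at 0.324 in IMQ, again with IMQ+IDMF between the IMQ+VEH libraries. For the integrin, Itga6 stood at 1.49 times Itgb4 in IMQ+IDMF, at 1.46 and 1.43 times in IMQ+VEH and at 1.75 times in IMQ, so the 3 lotion-treated libraries shared 1 balance of chains and IMQ stood apart. These ratios are descriptions of single libraries, with no test.

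**Figure D3:**
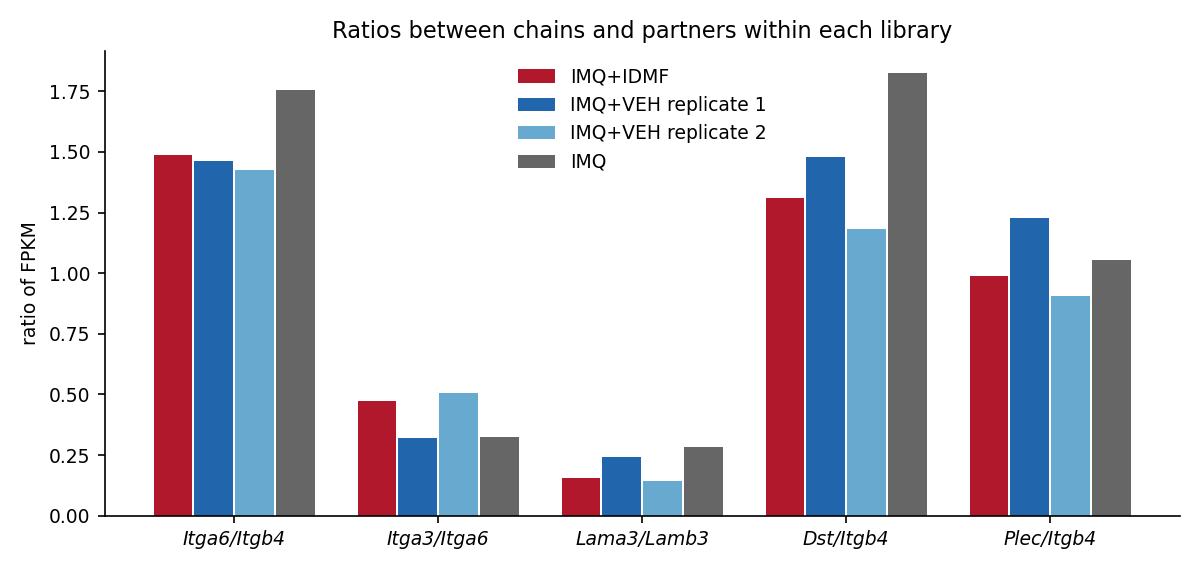
Ratio of FPKM between chains or partners in each library, with 1 bar per library and no error. Itga6 over Itgb4 is between 1.43 and 1.49 in the lotion-treated libraries and 1.75 in IMQ, and Lama3 over Lamb3 runs from 0.144 to 0.281.

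Trp63 had 328 CPM in IMQ+IDMF, 231 and 299.9 CPM in IMQ+VEH replicates 1 and 2, and 331 CPM in IMQ. With TMM scaling IMQ+IDMF and IMQ were almost level, and IMQ+VEH replicate 1 was lowest. With scaling to epidermal genes IMQ+IDMF was 0.28 above IMQ, where the median of all genes was 0.30. The log2 fold change of IMQ+IDMF against IMQ+VEH was 0.30 (SE 0.34, 95% interval -0.43 to 1.04), and the IMQ+VEH pair differed by 0.38. Itga3, Lamb3 and Trp63 were higher in replicate 2 than in replicate 1, opposite to Dst, Plec and Lama3; with scaling to epidermal genes Lamb3 was lower in replicate 2 (-0.07). Suprabasal keratinocyte markers were also higher in replicate 2 than in replicate 1, by a median of 0.42, and basal keratinocyte markers differed by -0.03 (0.07 and -0.39 with scaling to epidermal genes); their part in the result was not tested. IMQ+IDMF lay above both IMQ+VEH libraries by more than these differed from each other for 3 of the 9 genes, Itga6, Itgb4 and Lamb3, against 11.6% of genes tested. With scaling to epidermal genes they were Itga3, Lamb3 and Trp63, against 6.3%.

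**Figure D4:**
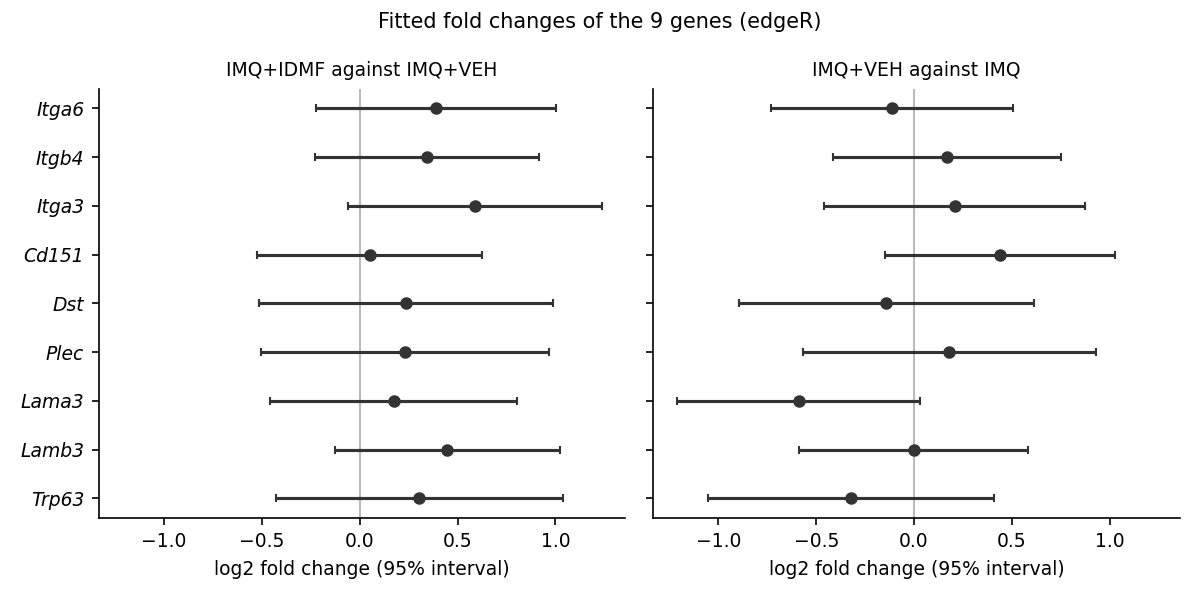
Log2 fold change of each gene by edgeR with its 95% interval, for IMQ+IDMF against IMQ+VEH (left) and IMQ+VEH against IMQ (right). All 9 points are above 0 on the left, from 0.05 to 0.59, and all 18 intervals include 0.

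Basal keratinocyte markers outside the 9 had a median 0.24 above IMQ+VEH replicate 1 and 0.27 above replicate 2. Of these markers 6 of 10 lay above both libraries and 1 of 10 below both, against 27.7% and 27.5% of genes tested. With scaling to epidermal genes the medians were 0.00059 and 0.39. There 5 of 10 lay above both and 1 of 10 below both, against 16.7% and 29% of genes. Col17a1, the transmembrane collagen of the hemidesmosome, had 71.9 FPKM in IMQ+IDMF, 48.6 and 55.8 FPKM in IMQ+VEH and 52.1 FPKM in IMQ (log2 fold change against IMQ+VEH 0.50, SE 0.36). Krt5, which pairs with Krt14 in the filaments that hemidesmosomes anchor, had 0.33 (SE 0.67), Krt14 had 0.21 (SE 0.75) and the cyclin gene Ccnd2 had 0.65 (SE 0.26). Suprabasal markers had medians of 0.15 to replicate 1 and -0.22 to replicate 2, with 0 of 9 tested above both. Hair follicle markers were higher too, with medians of 1.76 and 1.33, and 10 of 10 above both; they summed to 96.0 CPM in IMQ+IDMF, 52.6 and 60.1 CPM in IMQ+VEH and 112 CPM in IMQ, and Krt35 and Krt85 were at 0 counts in at least 1 library. Hair follicle epithelium also carries basal keratinocytes, and the part of these markers in the result was not tested. Fibroblast markers (10 of 10) and macrophage and dendritic markers (10 of 10) lay below both IMQ+VEH libraries, against 27.5% of genes tested. For fibroblast markers it was 8 of 10 with total counts (26% of genes) or with scaling to epidermal genes (29%). For IMQ+IDMF against IMQ+VEH edgeR called 0 genes of any of these lists and 0% of genes tested. At an unadjusted p under 0.05 there were 1 of 10 basal, 0 of 9 suprabasal and 7 of 10 hair follicle markers. There were also 6 of 10 fibroblast and 6 of 10 macrophage and dendritic markers. Over all genes tested the share was 2.03%.

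**Figure D5:**
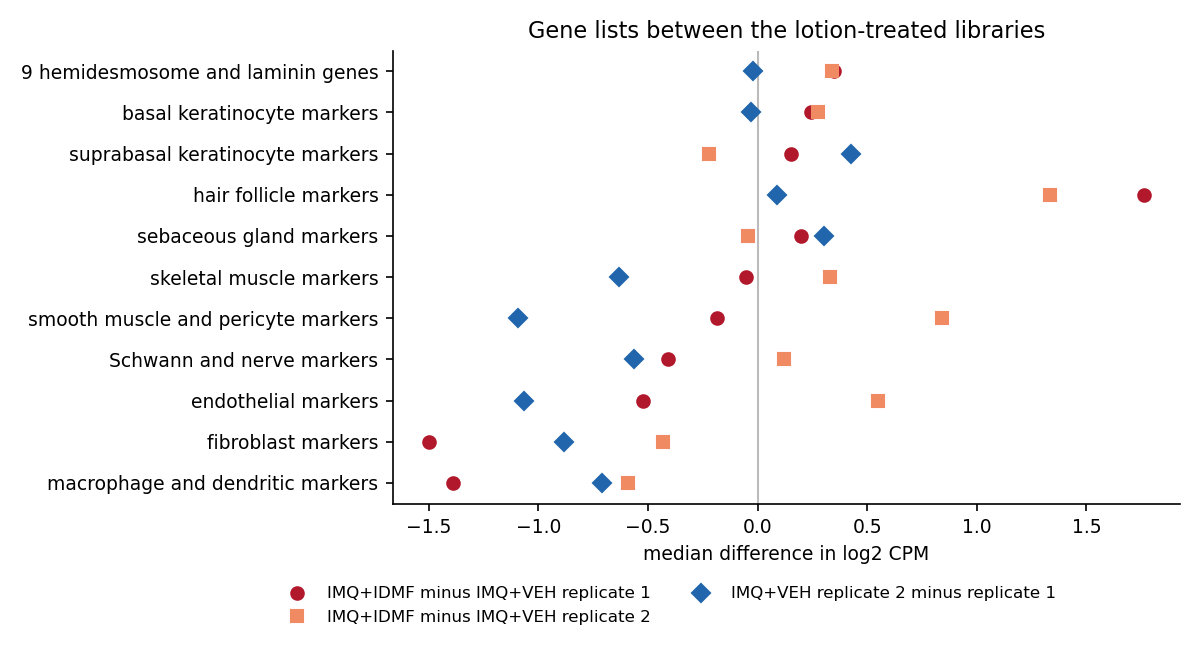
Median difference in log2 CPM of each gene list between IMQ+IDMF and each IMQ+VEH library, and between the 2 IMQ+VEH libraries. With TMM scaling the 9 genes have 0.35, 0.34 and -0.02, near the basal keratinocyte markers, while fibroblast and endothelial markers differ by -0.88 and -1.07 within the IMQ+VEH pair.

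Other genes of the basement membrane, cell adhesion and p63 were read from further lists, in none of which edgeR called a gene for IMQ+IDMF against IMQ+VEH. At an unadjusted p under 0.05 there was 1 of the 18 basement membrane genes and 0 of the others, against 2.03% of genes tested. The counts above or below both libraries are read against 27.7% and 27.5% of genes tested with TMM scaling. Those shares were 29.1% and 26% with total counts, and 16.7% and 29% with scaling to epidermal genes. Several of the counts are near or under the share for their scaling. Of 18 basement membrane and anchoring genes, 8 lay above both IMQ+VEH libraries and 0 below both, but the list differed by a median of -0.69 within the IMQ+VEH pair. The Fraser complex genes Fras1 and Frem2, which anchor the embryonic epidermis, had 1.28 (SE 0.42) and 0.89 (SE 0.43). Of 16 other keratinocyte integrins and adaptors, 3 lay above both, among them the collagen receptor chain Itga2 (0.86, SE 0.59) and kindlin-1, Fermt1 (0.37, SE 0.29), and 4 below both, among them the fibronectin receptor chain Itga5 (-0.45, SE 0.34). Of 13 desmosome genes, which join keratinocytes to each other, 3 were above both and 2 below both (1 and 4 with scaling to epidermal genes), with Dsg3 at 0.48 (SE 0.29), Dsg2 at 0.23 (SE 0.33) and Dsc1 at -0.12 (SE 0.46). Of 9 other plakins and tetraspanins 3 were above both: Cd82 (0.30, SE 0.28), Tspan4 (0.24, SE 0.32) and Cd9 (0.20, SE 0.35). Of 10 proteases that can cut laminin 332 or collagen XVII, 8 were below both (5 with total counts or scaling to epidermal genes) and 0 above, with Mmp2 at -0.55 (SE 0.30), Mmp9 at -0.67 (SE 0.47) and Mmp14 at -0.34 (SE 0.27). Mmp2 and Mmp14 are largely stromal genes, and fibroblast markers were lower in the same library; their part in these values was not tested. Of 18 p63 target and partner genes, 6 were above both and 2 below both (4 and 5 with scaling to epidermal genes), including the Notch ligands Jag2 (0.54, SE 0.26) and Jag1 (0.21, SE 0.26) and the differentiation factor Ovol1 (-0.30, SE 0.28).

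IMQ+VEH set against IMQ addresses the effect of the vehicle lotion alone. With TMM scaling the 9 genes had no common direction. Their median log2 CPM difference was -0.01, against -0.01 over all genes, with 2 of 9 above IMQ in both IMQ+VEH libraries (Itgb4 and Cd151) and 3 of 9 below in both (Itga6, Lama3 and Trp63), where all genes had 33.5% and 35%. With scaling to epidermal genes 7 of 9 were above and 0 below, where all genes had 63.9% and 7.74%. EdgeR called 0 of the 9, against 0.338% of genes higher and 0.325% lower, with 0 of the 9 and 8.81% of genes at an unadjusted p under 0.05; DESeq2 called 0 of the 9. Lama3 was farthest from 0, with a log2 fold change of -0.59 (SE 0.29, 95% interval -1.21 to 0.03, edgeR adjusted p = 0.606). Cd151 had 0.44 (SE 0.27, -0.15 to 1.03, edgeR adjusted p = 0.75) and Trp63 -0.32 (SE 0.34). The rest were between -0.14 (Dst) and 0.21 (Itga3). This comparison shares the IMQ+VEH libraries with the one above. IMQ was higher for some other epidermal genes. Krt14 had 4540 and 4677 CPM in IMQ+VEH, against 9905 CPM in IMQ (log2 fold change -1.10, SE 0.73, edgeR adjusted p = 0.80). Both IMQ+VEH libraries were below IMQ for 11 of 13 desmosome genes, against 35% of genes tested. With scaling to epidermal genes it was 6 of 13, against 7.74%. Krt5 had -0.23 (SE 0.67) and Col17a1 -0.09 (SE 0.36). Among the lists of adhesion genes, Fras1 fell in IMQ+VEH, with 90 and 71 counts against 417 in IMQ (-2.30, SE 0.41, edgeR adjusted p = 0.0255, 0.0879 with total counts and 2.93e-05 to 0.0879 over all alternatives). IMQ+IDMF had 181 counts of Fras1. It was the 1 gene called among the 18 of its list. Hair follicle markers, of which 3 of 10 were called lower, were also below IMQ in these libraries (9 of 10 in both); their part in the Fras1 result was not tested.

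For IMQ+IDMF against IMQ, with a single library on each side, no test was made. IMQ+IDMF was higher for 7 of the 9 genes, against 50.1% of genes tested, with a median log2 CPM difference of 0.41. Past 1.5-fold higher was 1 of the 9, Itga3 at 0.80, against 14.5% of genes; it was 2 of 9 with total counts, against 17.2%, and 5 of 9 with scaling to epidermal genes, against 26.9%. Itgb4 was at 0.51, Cd151 at 0.49, Lamb3 at 0.45, Plec at 0.41, Itga6 at 0.28 and Dst at 0.10, while Trp63 was at -0.02 and Lama3 at -0.42. Set against all 3 other libraries as 1 group, IMQ+IDMF was highest of the 4 for 7 of the 9 genes, against 19.2% of genes, and lowest for 0 of 9, against 19.5%. It was highest for 5 of 9 with total counts (22.4% of genes) or with scaling to epidermal genes (15.3%). EdgeR called 0 of 15068 genes there and DESeq2 1, which was none of the 9, with 0 of the 9 and 1.11% of genes at an unadjusted p under 0.05. This fit took IMQ and the IMQ+VEH pair as 1 mean, with 2 residual degrees of freedom. Its spread thus includes differences between those groups, and its SE values cannot be compared directly with those against IMQ+VEH. Itga3 had a log2 fold change of 0.65 (SE 0.29), Lamb3 of 0.45 (SE 0.22) and Itgb4 of 0.40 (SE 0.21). The others were between -0.05 (Lama3) and 0.35 (Itga6). Col17a1 had 0.46 (SE 0.28), Krt5 0.25 (SE 0.46) and Krt14 -0.26 (SE 0.66).

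The median profile of the 9 genes, centred on the mean of the 4 libraries, was 0.23 in IMQ+IDMF, -0.05 and -0.04 in IMQ+VEH and -0.11 in IMQ on the log2 CPM scale. Among 8337 other genes with a mean log2 CPM of at least 4, the 5 nearest to it by root mean square distance over 4 libraries were Lmo4 (0.017), Grk6 (0.019), Prkcsh (0.022), Dnaja3 (0.026) and Farsb (0.026). With 4 libraries and a profile this flat, nearness is a description only.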

How the data were processed

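Each library had 1 table of the authors, with a raw count and an FPKM per gene symbol, per the file headers. The deposited counts were used for tests and the deposited FPKM values for levels between genes. The submitters' processing notes name the tools HTSeq, Cufflinks and TopHat2 and the builds mm10 and GRCm38; their versions, the annotation and the strand setting were not given in the sources used here. Groups came from the sample titles. Counts were fitted with the quasi-likelihood F test of edgeR 4.0.16 under R 4.3.3. The test was two-sided, with TMM scaling, the filterByExpr filter, 1 mean per group and Benjamini-Hochberg adjustment over 15068 genes (threshold 0.05). IMQ+VEH alone is replicated, so there was 1 residual degree of freedom, with 11.2 prior degrees of freedom. The spread behind the p-values comes in part from the IMQ+VEH pair and mostly from the trend over all genes. In the fit with 1 mean per group the IMQ+IDMF and IMQ libraries add nothing to it. The series' text calls the libraries independent biological replicates. SE is the log2 fold change over the square root of F. Log2 CPM used a prior count of 2. The script was tested on simulated data.

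Members and lists were chosen with earlier results of these data known. Named whatever their values were the 9 genes, Col17a1, Krt5 and Krt14; of each list up to 3 genes with mean log2 CPM of at least 1, by how far IMQ+IDMF lay on 1 side of both IMQ+VEH libraries; and the 5 genes nearest in profile. Genes of the cell type lists that this rule names are summarised by list. Flg was not analysed here, and the rule names 1 gene that is left unreported. Alternatives were DESeq2 1.42.0, its size factors, total counts, no filter, a filter at a mean of 50 counts, robust fitting, scaling to 16 pan-epidermal genes, log2(FPKM + 1) and log2(FPKM + 0.1), a prior count of 0.5, and libraries left out in turn.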

Additional observations from a re-analysis of the deposited data

How the results depend on the processing

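None of the 9 genes passed the threshold in any comparison under any alternative that gave a test, with a smallest adjusted p of 0.501. Of 351 alternative values for these genes 331 kept their sign. For IMQ+IDMF against IMQ+VEH the exceptions were Cd151 with pan-epidermal scaling (-0.0097) and Lama3, which ran from -0.031 to 0.41 with an IMQ+VEH library left out. For IMQ+VEH against IMQ, pan-epidermal scaling gave 0.24 for Itga6, 0.19 for Dst, 0.35 for Lamb3 and 0.024 for Trp63, and moved the median of the 9 to 0.35; the median of all genes moved to 0.34. With an IMQ+VEH library left out, Itga3 ran from -0.14 to 0.49, Dst from -0.42 to 0.088, Plec from -0.048 to 0.38 and Lamb3 from -0.15 to 0.14. Lamb3, near 0, turned to 0.0073 with DESeq2 size factors, 0.061 with total counts, 0.00082 with no filter, 0.0054 with a mean count of at least 50, 0.0070 with DESeq2, 0.0091 without IMQ+IDMF, 0.084 with log2(FPKM + 1) and 0.089 with log2(FPKM + 0.1). Against the 3 other libraries Lama3 ran from -0.24 to 0.17 with a library left out and was 0.047 with pan-epidermal scaling. The median of IMQ+IDMF against IMQ was 0.71 with pan-epidermal scaling, where all genes had 0.30. The median of the 9 for IMQ+IDMF against IMQ+VEH stayed between 0.26 and 0.35 under all alternatives, with libraries left out on the TMM scale alone. With pan-epidermal scaling it was 0.11 against replicate 1 alone and 0.46 against replicate 2 alone. For this median, total counts and left-out libraries were chosen after seeing the data. So were the alternatives for Fras1 and for the counts of members and list genes above or below both libraries. Over all genes, no filter called 16 for IMQ+IDMF against IMQ+VEH (0 with the filter) and 424 for IMQ+VEH against IMQ (100 with the filter, 200 by DESeq2), and DESeq2 called 1 against the 3 other libraries. Leaving out a library gave 0 calls for that comparison each time and 100 for IMQ+VEH against IMQ without IMQ+IDMF; without an IMQ+VEH library, 1 library per group allows a value but no test. Where directions turned, the cause was not tested. No paired analysis was possible because IMQ+VEH is the single group with more than 1 replicate.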
